A study of Mus musculus with 32 samples.

Results

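The liver's resident macrophages, the Kupffer cells, were followed through 10 genes that macrophages express: Nrros, Cd5l, Clec4f, Vsig4, Marco, Timd4, Csf1r, Adgre1, Cd68 and C1qa. The 10 were taken from a table of 20076 genes by their known expression in these cells, and Nrros was also chosen by its measured level, which was lower in knockout than in wild-type liver in 2 of the 4 diet and feeding conditions. The measured livers came from male C57BL/6J mice that either lacked Acadm in the whole body (KO), the gene of medium-chain acyl-CoA dehydrogenase (MCAD), or were wild-type littermates (WT). Both genotypes received a semisynthetic low-fat (LF) or high-fat (HF) diet for 6 weeks and were either fed or fasted for 16 h before the liver was freeze-clamped. Each of the 8 groups held 4 mice, aged between 7.5 and 16 in the labels, which give no unit. RNA was taken from whole tissue, so that each value is an average over all cells of the piece.

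Kupffer cells sit in the sinusoids, take up particles, bacteria and dying cells from the portal blood, and depend on signals through the receptor of colony-stimulating factor 1. Csf1r encodes that receptor, Adgre1 the surface antigen F4/80, Cd68 a lysosomal membrane glycoprotein and C1qa a chain of the complement component C1q, all shared by many tissue macrophages. Clec4f, a galactose-binding lectin, marks Kupffer cells in the mouse, Vsig4 is a receptor for complement C3 fragments, Marco is a scavenger receptor, Timd4 binds phosphatidylserine on dying cells, and Cd5l is a secreted protein also called apoptosis inhibitor of macrophages. Nrros, also known as LRRC33, holds latent TGF-β1 on the surface of myeloid cells and limits the production of reactive oxygen by NADPH oxidase.

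The sequences upstream of 4 of these genes are given because their expression carries the results below: Nrros for its lower level in KO liver, Clec4f and Timd4 for their lower level after fasting on LF, and Cd5l for its spread between fasted mice. The sequences are from RefSeq (GRCm38.p6), and the table used here was matched for 7 of the 10 genes, without Csf1r, Adgre1 and C1qa. Each line holds the 250 bases before the start in RefSeq, 5′ to 3′ on the strand of the gene, in lower case. Capitals mark GAGGAA, the core recognised by the macrophage factor PU.1, and TGCTGA, a short recognition sequence of MAF factors, on either strand.
Nrros, chr16:32165595-32165844, minus strand: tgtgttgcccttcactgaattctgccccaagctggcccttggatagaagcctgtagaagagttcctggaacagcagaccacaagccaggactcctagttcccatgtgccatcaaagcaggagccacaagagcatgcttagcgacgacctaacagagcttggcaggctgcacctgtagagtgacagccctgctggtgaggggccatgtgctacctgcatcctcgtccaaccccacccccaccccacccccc
Cd5l, chr3:87357631-87357880, plus strand: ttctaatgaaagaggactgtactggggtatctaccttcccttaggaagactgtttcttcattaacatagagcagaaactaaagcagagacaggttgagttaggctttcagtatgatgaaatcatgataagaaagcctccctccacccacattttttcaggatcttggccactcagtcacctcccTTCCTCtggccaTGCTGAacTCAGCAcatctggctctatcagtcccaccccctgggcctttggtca
Clec4f, chr6:83656117-83656366, minus strand: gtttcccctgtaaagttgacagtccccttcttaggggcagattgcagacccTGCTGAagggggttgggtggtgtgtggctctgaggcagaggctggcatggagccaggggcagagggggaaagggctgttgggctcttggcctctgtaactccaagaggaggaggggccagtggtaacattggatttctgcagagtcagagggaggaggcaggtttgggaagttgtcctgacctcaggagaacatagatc
Timd4, chr11:46810549-46810798, plus strand: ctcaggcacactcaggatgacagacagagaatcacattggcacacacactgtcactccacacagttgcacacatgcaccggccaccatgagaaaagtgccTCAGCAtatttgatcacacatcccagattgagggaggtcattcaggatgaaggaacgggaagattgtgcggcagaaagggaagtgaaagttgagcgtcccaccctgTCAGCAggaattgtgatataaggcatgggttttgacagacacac
GAGGAA holds the GGAA that all ETS factors share, and the motifs do not overlap each other in these windows. GAGGAA was found upstream of 4 of the 7 genes (Cd5l, Vsig4, Marco and Cd68) and in 23.3% of 32851 upstream windows of the same length. TGCTGA was found upstream of 3 of the 7 (Cd5l, Clec4f and Timd4) and in 16.1% of all windows. In Cd5l the matches lay close together, between 66 and 41 bases before the start, while the window of Nrros held neither motif.

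The labels place the libraries on lanes 7 and 8. A total of 30 mice were compared. One WT LF fed mouse that stood apart from its group and one KO HF fasted library with heart transcripts were left out, which left 3 mice in each of these groups. Their libraries held between 2031053 and 4292200 counts, with a median of 2899001. Counts of Acadm lay between 26 and 94 in KO and between 566 and 2752 in WT livers (15 mice each), with no overlap. In 4 of the 30 livers, markers of a neighbouring organ summed to over 100 CPM (the CPM, the unit used below, is a gene's count as a rate of the library total, scaled by the TMM method): adrenal cortex markers reached 255 CPM and 105 CPM in replicates 3 and 4 of KO LF fasted, and acinar pancreas markers reached 17158 CPM in WT HF fasted replicate 2 and 2534 CPM in KO HF fed replicate 1. In tissue of this kind, fewer macrophages and less RNA per macrophage cannot be told apart.

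All 10 genes were detected in every one of the 30 livers. Cd5l had 257 to 939 counts per liver, C1qa 81 to 310, Clec4f 69 to 225, Vsig4 63 to 235 and Csf1r 47 to 157. Marco (6 to 66 counts), Adgre1 (8 to 66), Nrros (8 to 57), Cd68 (10 to 49) and Timd4 (3 to 24) rested on few counts, and their values carry a larger counting error. On GRCm38, Nrros lies on chromosome 16 (32142785 to 32165594, minus strand), Clec4f on chromosome 6 (83644542 to 83656187, minus strand), Timd4 on chromosome 11 (46810800 to 46844332, plus strand), Adgre1 on chromosome 17 (57358691 to 57483527, plus strand) and Cd5l on chromosome 3 (87357881 to 87371073, plus strand). None of these shares bases with another annotated gene. Csf1r is the exception among the 10, since its 3′ end runs into Hmgxb3 on the opposite strand, and the counts of that pair are uncertain where the strand setting of the counting is not given.

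**Figure D1:**
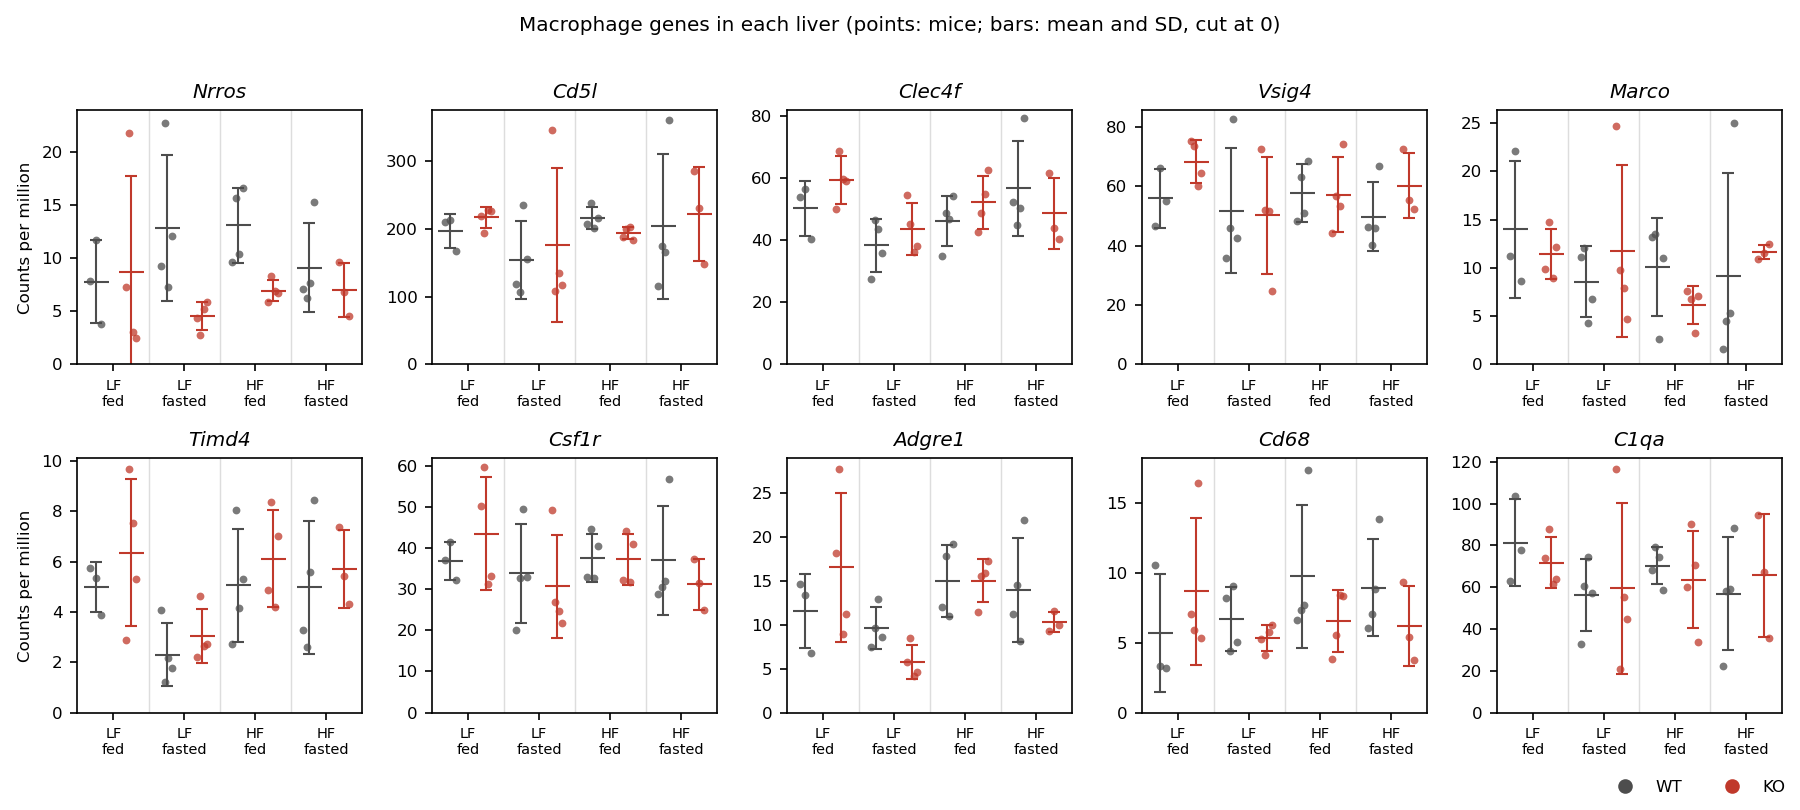
CPM of the 10 genes in each of 30 livers, by diet and feeding state (x axis) and genotype (grey WT, red KO), with group mean and SD, the SD bars cut at 0. Timd4 and Adgre1 sit low in the LF fasted mice, and Cd5l is tight in fed and scattered in fasted livers. Nrros separates KO from WT in LF fasted and HF fed, the conditions used to choose it.

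The first question was whether fasting changed the macrophage genes. Over both genotypes and both diets, Adgre1 (F4/80) was the one gene of the 10 that differed, and it was lower after fasting. The 15 fed mice had 6.76 to 27.7 CPM of Adgre1 with a median of 14.6, and the 15 fasted mice 4.21 to 21.9 CPM with a median of 9.32. The ranges overlapped, with the fasted values shifted down. The log2 fold change of Adgre1, fasted over fed, was -0.60 (SE 0.17, n = 15 and 15), a 1.52-fold lower level (adjusted p = 0.0107, edgeR quasi-likelihood test with Benjamini-Hochberg adjustment over 11566 genes). Within sequencing lane 7 alone (16 mice) it was -0.81 (adjusted p = 0.0817, edgeR) and within lane 8 (14 mice) -0.49 (adjusted p = 0.248, edgeR), the same direction without passing the threshold. Of all genes tested, 18.9% passed and 9.14% passed as lower, so that 1 of 10 is close to the share of all genes.

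The remaining genes had values below 0 for the most part. Timd4, the receptor for phosphatidylserine, had a log2 fold change of -0.56 (SE 0.24, adjusted p = 0.0974, edgeR), and the other 8 lay between -0.27 for C1qa and 0.02 for Marco. The median over the 10 was -0.19 and 9 of 10 were negative, where the median of all genes tested was -0.0022. Nrros had -0.18 (SE 0.24), a difference smaller than its spread.

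The genes of general macrophage function overlapped widely between the feeding states. Csf1r, the growth factor receptor, ranged from 31.2 to 59.7 CPM (median 37.2) in fed and from 20.1 to 56.9 CPM (median 31.6) in fasted mice. C1qa, the complement gene, ranged from 33.9 to 104 CPM (median 70.4) in fed and from 20.8 to 117 CPM (median 57.9) in fasted mice, and the lysosomal gene Cd68 from 3.22 to 17.4 CPM (median 7.03) in fed and from 3.78 to 13.8 CPM (median 6.04) in fasted mice. The Kupffer cell receptors showed the same overlap. Vsig4 ranged from 44.1 to 75.1 CPM (median 59.9) in fed and from 24.6 to 82.6 CPM (median 51.6) in fasted mice, and the scavenger receptor Marco from 2.67 to 22.1 CPM (median 9.91) in fed and from 1.65 to 24.97 CPM (median 9.76) in fasted mice. The fasted mice spanned the whole fed range or more for Vsig4, Marco and C1qa, and most of it for Csf1r and Cd68.

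On LF, fasting lowered 3 of the 10 genes: Adgre1, Timd4 and Clec4f. In the LF fed mice Adgre1 was at 14.6, 13.4 and 6.76 CPM in WT and at 18.2, 27.7, 8.91 and 11.2 CPM in KO. In the LF fasted mice it was at 7.43, 9.61, 12.9 and 8.59 CPM in WT and at 5.72, 8.48, 4.21 and 4.68 CPM in KO. All 8 fasted mice lay below the fed median of 13.4 CPM, and the groups overlapped, with 3 fed mice (6.76, 8.91 and 11.2 CPM) below the highest fasted mouse.

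Timd4 showed a similar picture at lower counts. It was at 5.75, 5.35 and 3.86 CPM in WT LF fed and at 2.88, 9.67, 7.54 and 5.31 CPM in KO LF fed mice. After fasting it was at 4.09, 1.201, 2.15 and 1.77 CPM in WT and at 2.20, 4.62, 2.63 and 2.73 CPM in KO. All but 2 of the fasted mice lay below every fed mouse.

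Clec4f, the lectin that marks Kupffer cells, was at 53.9, 56.5 and 40.2 CPM in WT LF fed and at 49.8, 68.5, 59.6 and 59.0 CPM in KO LF fed mice. After fasting it was at 27.5, 46.4, 43.4 and 35.9 CPM in WT and at 54.6, 45.2, 36.3 and 38.2 CPM in KO. The fasted values were again the lower ones, with an overlap that came from the low fed WT mouse and the high fasted KO mouse.

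The log2 fold changes on LF were -0.87 for Adgre1 (SE 0.25, adjusted p = 0.0103, edgeR), -1.05 for Timd4 (SE 0.34, adjusted p = 0.0242, edgeR) and -0.42 for Clec4f (SE 0.15, adjusted p = 0.0388, edgeR), with 7 fed and 8 fasted mice. These correspond to levels 1.83-fold, 2.08-fold and 1.34-fold lower. All 10 genes were negative on LF, from -0.10 for Nrros to -1.05 for Timd4, with a median of -0.33. Of all genes tested, 5787 of 11566 were negative there, with a median of -0.00018. Of all genes tested, 19.4% passed on LF and 9.41% passed as lower. When the 4 livers with adrenal or pancreatic transcripts were left out, a choice made after the data were seen, none of the 3 genes passed. Their values were then -0.73 for Adgre1 (adjusted p = 0.0711, edgeR), -0.97 for Timd4 (adjusted p = 0.0769, edgeR) and -0.32 for Clec4f (adjusted p = 0.170, edgeR). Lane was partly mixed with feeding state on LF, since no WT LF fed mouse was on lane 7. With lane as a term Adgre1 and Timd4 passed, and Clec4f did not (-0.37, adjusted p = 0.0877, edgeR). With the left-out WT LF fed mouse kept (31 mice), Clec4f had -0.38 (adjusted p = 0.0508, edgeR), and the other genes passed.

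Markers of other liver cells were measured beside these genes in the same LF mice. Of 12 sinusoidal endothelial markers, the hyaluronan receptor Lyve1 was higher (1.06, adjusted p = 0.00204, edgeR) and the nuclease Dnase1l3 lower (-0.57, adjusted p = 0.00139, edgeR) after fasting on LF, and their sum was 485 to 623 CPM in fed and 463 to 724 CPM in fasted mice. Of 10 stellate cell markers 2 were lower, the collagen gene Col3a1 (-1.95, adjusted p = 7.1e-07, edgeR) and Reln (-0.42, adjusted p = 0.0278, edgeR), with sums of 481 to 627 CPM and 475 to 595 CPM. Of 10 hepatocyte markers 1 was higher (Apoa1, 0.58) and 2 were lower (Fgb, -0.46, and Trf, -0.50), and their sum ran from 47824 to 53730 CPM in fed and from 40753 to 58458 CPM in fasted mice. B cell markers were low, with sums of 5.89 to 15.6 CPM in fed and 1.01 to 6.60 CPM in fasted mice, and 1 of the 2 tested, the immunoglobulin gene Ighm, was lower (-2.40, adjusted p = 0.0486, edgeR). Of 3 dendritic cell markers the lectin Clec10a was lower (-1.56, adjusted p = 0.0457, edgeR), with sums of 22.7 to 29.6 CPM in fed and 16.4 to 36.1 CPM in fasted mice. Of 8 genes of recruited monocytes and inflammatory macrophages 2 were lower, Plac8 (-0.85, adjusted p = 0.0473, edgeR) and Spp1 (-1.04, adjusted p = 0.00016, edgeR), and the sum of the list was 70.3 to 96.3 CPM in fed and 39.6 to 80.9 CPM in fasted mice. The 3 bile duct markers tested had values below 0 with a median of -0.94, and none passed. Leaving out each of the 30 mice in turn, Ighm and Plac8 each lost their call in 21 cases, Clec10a in 14 and Reln in 5. The part of these cells in the macrophage results was not tested.

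On HF, none of the 10 genes differed between fasted and fed mice with edgeR, at an adjusted or an unadjusted p of 0.05, nor with DESeq2 or limma voom, where 2.62% of all genes passed. Adgre1 had a log2 fold change of -0.34 (SE 0.24), Timd4 -0.06 (SE 0.32) and Clec4f 0.10 (SE 0.15), and the median of the 10 was -0.09. On HF, Timd4 ranged from 2.72 to 8.37 CPM with a median of 5.09 in 8 fed mice and from 2.60 to 8.45 CPM with a median of 5.43 in 7 fasted mice. Clec4f ranged from 34.9 to 62.7 CPM in fed and from 40.5 to 79.1 CPM in fasted mice. The fed and fasted mice on HF thus covered nearly the same range of Timd4 and overlapping ranges of Clec4f, whose highest value was in a fasted mouse.

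The difference between the diets was tested itself. The fasting effect on HF minus that on LF was 0.51 for Clec4f (SE 0.21, adjusted p = 0.230, edgeR), 0.99 for Timd4 (SE 0.47, adjusted p = 0.349, edgeR) and 0.53 for Adgre1 (SE 0.35, adjusted p = 0.579, edgeR). None of the 10 genes passed with edgeR, DESeq2 or limma voom, 2 had an unadjusted p below 0.05 with edgeR, and 2.46% of all genes passed. The fasting effects on LF and HF were therefore not shown to differ for these genes, although 9 of the 10 differences were positive with a median of 0.33.

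**Figure D2:**
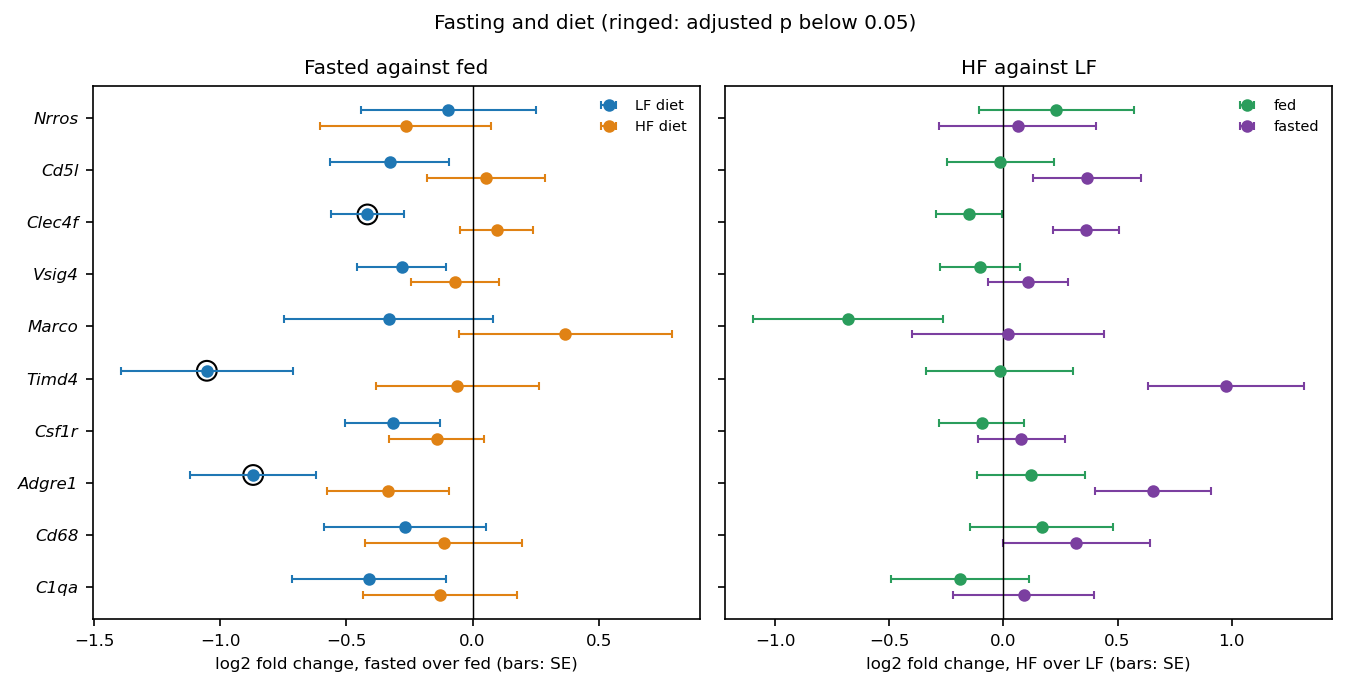
Log2 fold changes with SE for the 10 genes, at the left fasted over fed on LF (blue) and HF (orange), at the right HF over LF in fed (green) and fasted mice (purple). Rings mark Clec4f, Timd4 and Adgre1 after fasting on LF, the values with an adjusted p below 0.05 in edgeR.

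The same mice were then compared by diet. Over both feeding states none of the 10 genes passed with edgeR, DESeq2 or limma voom, 2 (Timd4 and Adgre1) had an unadjusted p below 0.05 with edgeR, and 3.49% of all genes passed. In fed mice none passed either, none had an unadjusted p below 0.05 with edgeR, and 0.268% of all genes passed. In fasted mice all 10 genes had positive log2 fold changes, HF over LF, with a median of 0.21, beside 5793 of 11566 and a median of 0.00094 for all genes. Again none passed, with 3 at an unadjusted p below 0.05 in edgeR and 6.65% of all genes passing. Timd4 had 0.98 (SE 0.34, adjusted p = 0.0833, edgeR), Adgre1 0.65 (SE 0.25, adjusted p = 0.125, edgeR) and Clec4f 0.36 (SE 0.15, adjusted p = 0.148, edgeR). These values share their LF fasted mice with the fasting comparison on LF.

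Nrros was the gene for which the genotypes were set apart, and its values in LF fasted and HF fed mice are a description, since they were used to choose it. In LF fasted mice Nrros was at 9.29, 22.8, 7.31 and 12.1 CPM in WT and at 4.402, 2.83, 5.26 and 5.85 CPM in KO. In HF fed mice it was at 9.70, 15.7, 10.4 and 16.7 CPM in WT and at 5.91, 8.37, 6.89 and 6.71 CPM in KO. In both conditions each of the 4 KO mice lay below each of the 4 WT mice, an order that 1.07% and 1.5% of all genes had. The log2 fold changes, KO over WT, were -1.51 (SE 0.44) and -0.90 (SE 0.30), levels 2.86-fold and 1.87-fold lower.

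The remaining conditions were not part of that choice. In LF fed mice Nrros was at 7.91, 11.7 and 3.86 CPM in WT and at 7.35, 21.9, 3.08 and 2.498 CPM in KO. In HF fasted mice it was at 7.14, 6.31, 7.66 and 15.4 CPM in WT and at 9.64, 6.79 and 4.59 CPM in KO. The genotypes overlapped in both conditions, and a single KO mouse held the high value of the LF fed group. All 3 WT LF fed mice were on lane 8, where both KO mice (3.08 and 2.498 CPM) lay below them, and the other 2 KO mice were on lane 7. The log2 fold change was 0.12 in LF fed (SE 0.69, adjusted p = 0.997, edgeR) and -0.38 in HF fasted mice (SE 0.38, adjusted p = 0.996, edgeR), and errors of this size do not separate a fall like that in HF fed mice from no change. With lane as a term the LF fed value turned to -1.48 (adjusted p = 0.971, edgeR).

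Ordered by mean, Nrros was at 13.1 ± 3.58 CPM in WT HF fed (SD, n = 4), 12.9 ± 6.91 in WT LF fasted (n = 4), 9.12 ± 4.20 in WT HF fasted (n = 4), 8.70 ± 9.04 in KO LF fed (n = 4), 7.82 ± 3.92 in WT LF fed (n = 3), 7.01 ± 2.53 in KO HF fasted (n = 3), 6.97 ± 1.02 in KO HF fed (n = 4) and 4.59 ± 1.32 in KO LF fasted mice (n = 4). Neighbours in this order differed by less than the larger of their SDs, apart from the last pair. The ranges of that pair nearly touched, at 5.91 CPM (17 counts) for the lowest KO HF fed mouse and 5.85 CPM (15 counts) for the highest KO LF fasted mouse. These groups differ in diet and in feeding state, both were used to choose Nrros, and the step between them was not tested.

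Of the other macrophage genes, none had every KO mouse below every WT mouse in LF fasted mice (0 of 8 that could be fitted, Timd4 having too few counts), where 1.07% of all genes had this order. In HF fed mice it was 0 of 9, where 1.5% of all genes had it. The median log2 fold change of the genes was -0.05 in LF fasted and -0.07 in HF fed mice, beside 0.0043 and -0.0021 for all genes fitted, with Nrros included. The median in LF fasted mice depended on single mice, since it ran from -0.36 (without KO LF fasted replicate 1) to 0.22 with 1 mouse left out and was 0.26 without the livers with adrenal transcripts. In LF fasted mice the nearest value to that of Nrros was -0.70 (SE 0.39) for Adgre1, whose ranges overlapped, with 7.43 to 12.9 CPM in WT and 4.21 to 8.48 CPM in KO. In HF fed mice it was -0.69 (SE 0.42) for Marco and -0.56 (SE 0.38) for Cd68.

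In LF fed and in HF fasted mice none of the 10 genes passed between KO and WT with edgeR, DESeq2 or limma voom, and none had an unadjusted p below 0.05 with edgeR. Of all genes, 0.0193% passed in LF fed and 0.0096% in HF fasted mice. In LF fed mice 8 of the 10 were positive, with a median of 0.24 and values from -0.29 for Marco to 0.57 for Cd68 (SE 0.50). Of all genes fitted there, 5266 of 10366 were positive, with a median of 0.0054. The WT LF fed mice were all on lane 8 and the KO mice on both lanes, so that lane and genotype were partly mixed. By library total, the left-out WT LF fed mouse lay above the WT mice kept for most of the genes. It had 369 CPM of Cd5l, 91.2 of Vsig4, 29.8 of Adgre1 and 21.7 of Cd68. For Clec4f (54.0 CPM) and Timd4 (4.91 CPM) it lay within their range. The signs with this mouse kept are not given here. In HF fasted mice 5 were positive and 5 negative, from -0.53 for Cd68 (SE 0.39) to 0.41 for Marco (SE 0.78).

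**Figure D3:**
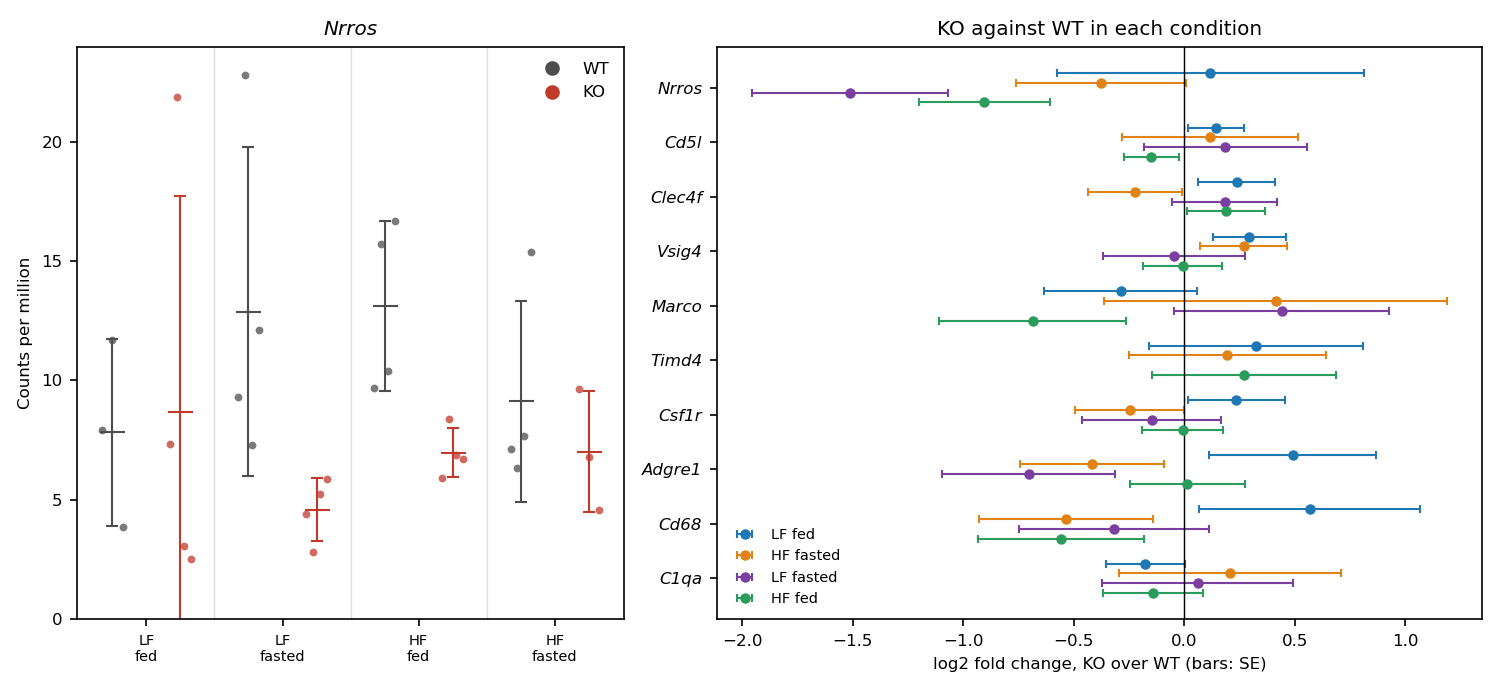
At the left, Nrros CPM in each mouse by condition (grey WT, red KO; mean and SD cut at 0). At the right, log2 fold changes KO over WT with SE for the 10 genes in LF fed, HF fasted, LF fasted and HF fed mice. Nrros is at -1.51 in LF fasted and -0.90 in HF fed mice, and the other genes lie between -0.70 and 0.57.

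The genes known to act with Nrros were looked up as a list of 17, of which 10 had enough counts to be tested. Tgfb1, the latent growth factor that Nrros binds, had no count in 24 of 30 livers and at most 3 in any, so that its change could not be measured at this depth. Itgb8, a chain of an integrin that releases active TGF-β, had no count in 8 livers and at most 7. Lrrc32, the homologue of Nrros on other cells, was at 6.67 ± 2.80 CPM in 15 fed and 6.79 ± 1.96 CPM in 15 fasted mice (SD). Cybb, the membrane subunit of the phagocyte NADPH oxidase, was at 27.5 ± 6.46 CPM and 24.5 ± 8.79 CPM in the same mice. In the fasting and the diet comparisons over all mice none of the 10 tested genes passed with edgeR, DESeq2 or limma voom, with 1 and 2 at an unadjusted p below 0.05 in edgeR.

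The ligands of Csf1r were also measured. Csf1 was at 9.27 ± 2.90 CPM in fed and 7.98 ± 3.57 CPM in fasted mice (SD, n = 15 each), and Il34, its second ligand, at 2.24 ± 1.05 CPM and 1.998 ± 1.52 CPM. Spi1, which encodes PU.1, was at 5.59 ± 3.04 CPM and 5.30 ± 3.30 CPM. Each of these differences was smaller than the spread between mice. Among the genes of the CSF1 axis and macrophage transcription factors, Csf2rb was higher after fasting, with 0.60 (SE 0.17, adjusted p = 0.0112, edgeR), as was Cebpb, with 0.75 (SE 0.26, adjusted p = 0.0421, edgeR). Csf2rb encodes a receptor chain for myeloid growth factors, and the transcription factor gene Cebpb is also expressed by hepatocytes.

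Further Kupffer cell genes were lower after fasting in 3 of 11 tested cases and higher in none, where 9.14% of all genes were lower and 18.9% passed in either direction. Folr2, a folate receptor of resident macrophages, fell from 4.18 to 17.9 CPM in fed to 1.201 to 7.30 CPM in fasted mice, a log2 fold change of -1.10 (SE 0.20, adjusted p = 5.9e-05, edgeR). Id3, a regulator needed for Kupffer cell identity and also present in other liver cells, had -0.84 (SE 0.18, adjusted p = 0.00118, edgeR), and C6, a complement component, -0.37 (SE 0.13, adjusted p = 0.0420, edgeR). The median over the 11 was -0.05.

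Among 20 general receptors and lysosomal genes of macrophages, 2 were higher and 3 lower after fasting, with a median of -0.20. These 5 of 20 are close to the 18.9% of all genes that passed. Aif1, the cytoplasmic protein IBA1, fell from 9.59 to 23.7 CPM in fed to 2.73 to 16.1 CPM in fasted mice (log2 fold change -0.97, SE 0.18, adjusted p = 6.7e-05, edgeR). Mpeg1, a pore-forming protein of phagocytes, had -0.51 (SE 0.14, adjusted p = 0.00463, edgeR) and Ctsb, a lysosomal protease, -0.23 (SE 0.08, adjusted p = 0.0354, edgeR). Grn, the lysosomal protein progranulin that many cell types make, went the other way, from 105 to 173 CPM in fed to 125 to 576 CPM in fasted mice (1.01, SE 0.11, adjusted p = 2.7e-09, edgeR). The other gene that rose was the phagocytosis receptor Mertk (0.34, adjusted p = 0.0495, edgeR), which was named after its values were seen.

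The fasting values of these genes kept their sign within each lane. In lanes 7 and 8 they were -1.04 and -1.11 for Folr2, -0.90 and -0.66 for Id3, -0.28 and -0.49 for C6, -0.96 and -0.99 for Aif1, -0.39 and -0.53 for Mpeg1, -0.18 and -0.28 for Ctsb and 0.70 and 1.199 for Grn. Csf2rb had 0.47 and 0.75 and Cebpb 0.58 and 0.97. Of these 9 genes Aif1 passed in both lanes. Some calls lay close to the threshold: leaving out each of the 30 mice in turn, C6 was no longer called in 17 cases (-0.45 to -0.30), Ctsb in 10 (-0.26 to -0.21) and Cebpb in 21 (0.64 to 0.84), and Ctsb and Cebpb also lost their call without the 4 livers with adrenal or pancreatic transcripts. Mertk was no longer called in 20 of these 30 cases.

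For Grn, Mpeg1 and Spp1 the fasting effects on LF and HF differed when the difference was tested. Mpeg1 was at 43.1 ± 8.22 CPM in LF fed (SD, n = 7), 20.7 ± 6.91 in LF fasted (n = 8), 41.4 ± 12.5 in HF fed (n = 8) and 41.5 ± 10.6 in HF fasted mice (n = 7), and the difference of the effects was 1.05 (SE 0.27, adjusted p = 0.0258, edgeR). Grn was at 143 ± 16.7, 393 ± 95.9, 138 ± 20.6 and 203 ± 56.9 CPM in the same order, with a difference of -0.94 (SE 0.21, adjusted p = 0.0109, edgeR). Spp1, osteopontin, which lipid-laden macrophages and bile duct cells make, was at 22.7 ± 4.23, 10.9 ± 4.56, 25.4 ± 5.34 and 25.5 ± 3.66 CPM, with a difference of 1.06 (SE 0.28, adjusted p = 0.0285, edgeR). Without the 4 livers with adrenal or pancreatic transcripts Mpeg1 (1.04, adjusted p = 0.0671, edgeR) and Spp1 (0.93, adjusted p = 0.108, edgeR) no longer passed, while Grn did. With the left-out WT LF fed mouse kept (31 mice), Grn (-0.79, adjusted p = 0.0725, edgeR) and Spp1 (1.78, adjusted p = 0.0905, edgeR) did not pass, while Mpeg1 did. Bile duct markers, which also express Spp1, summed to 37.4 to 71.1 CPM in LF fed and 34.9 to 53.7 CPM in LF fasted mice, and their part was not tested.

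Over both feeding states 3 of the 20 receptors and lysosomal genes and 2 of 8 genes of recruited monocytes and inflammatory macrophages passed between the diets, and none of the other macrophage lists did, where 3.49% of all genes passed. Grn was lower on HF (-0.50, SE 0.11, adjusted p = 0.00433, edgeR), and Cd81, a tetraspanin found on most cells, was higher (0.32, SE 0.07, adjusted p = 0.00804, edgeR), as was Mpeg1 (0.48, SE 0.14, adjusted p = 0.0369, edgeR). Of the monocyte and inflammatory genes, Spp1 (0.68, SE 0.14, adjusted p = 0.00276, edgeR) and Ccl2, a chemokine that attracts monocytes (1.64, SE 0.48, adjusted p = 0.0453, edgeR), were higher on HF and none was lower. Ccl2 was at no more than 6.38 CPM in any mouse and was no longer called in 23 of the 30 cases with 1 mouse left out, and Mpeg1 in 14. Within lanes 7 and 8 the values were -0.82 and -0.30 for Grn, 0.30 and 0.36 for Cd81, 0.52 and 0.53 for Mpeg1 and 0.63 and 0.78 for Spp1, none of them past the threshold. When the WT LF fed mouse left out above was kept (31 mice), the diet value of Spp1 was 0.31 (adjusted p = 0.653, edgeR) and that of Ccl2 1.23 (adjusted p = 0.212, edgeR), and with all 32 mice they were 0.22 and 1.38.

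To see how far the 10 genes moved together from mouse to mouse, their log2 CPM values were correlated over the 30 livers after the mean of each group was removed. Of 45 pairs 44 were positive, with a median Pearson's r of 0.38 and a range from -0.01 for Timd4 and C1qa to 0.79. All points share the depth of their library, and the correlations are given as a description. Csf1r followed the mean of the other 9 most closely (r = 0.85), followed by Clec4f (0.76) and Cd5l (0.70), while Nrros had 0.48, Timd4 0.36 and Cd68 0.29. For the remaining genes with enough counts, the median r with the mean of the 10 was -0.0125. Pairs among other genes were not computed.

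**Figure D4:**
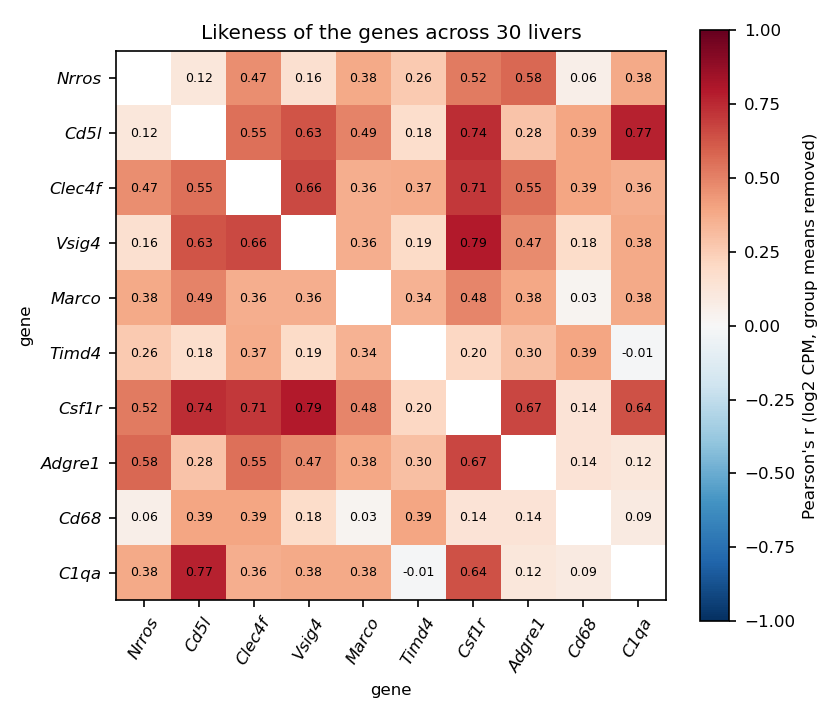
Pearson's r of log2 CPM between each pair of the 10 genes over 30 livers, with group means removed (red positive, blue negative). Of the 45 pairs 44 are positive, up to 0.79 for Vsig4 and Csf1r, and Cd68 and Timd4 have the palest rows.

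The non-members most like the mean of the 10 genes were H2-Ab1 (r = 0.82) and H2-Eb1 (0.75), which encode chains of the MHC class II molecules of antigen-presenting cells. Samhd1, H2-K1, Gm10605, Cybb, Arhgap9, Mrpl19, Hps3 and Fcer1g followed, down to r = 0.64. By Spearman correlation 4 of these 10 stayed in the leading 10, and with the group means kept 2 did, H2-Ab1 and H2-Eb1. For Nrros alone the leading genes were Leprotl1 (0.75) and Basp1 (0.74), neither of which is among the 10 above.

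The level of Cd5l varied more between fasted than between fed livers, which is given as a description. In the 15 fed mice it ranged from 168 to 238 CPM with a median of 208 and an SD of 18.4 CPM, and in the 15 fasted mice from 108 to 361 CPM with a median of 156 and an SD of 85.6 CPM. The fasted mice lay on both sides of the fed range. That range depended on the choice of mice, since the left-out WT LF fed mouse had 369 CPM of Cd5l by library total, above it. The high ones were replicate 4 of WT HF fasted (361 CPM), replicate 1 of KO LF fasted (346 CPM) and replicate 1 of KO HF fasted (287 CPM), and among the fasted mice the sum of the other 9 genes was also highest in these 3, at 376, 335 and 313 CPM.

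The sum of the other 9 genes was high in the fasted livers where Cd5l was high, though not each gene was. Single genes followed Cd5l to unlike degrees over the 30 livers with group means removed. Pearson's r ran from 0.12 for Nrros to 0.77 for C1qa. The sum of the 9 genes was 154 to 376 CPM in fasted mice with a median of 208, and 213 to 370 CPM in fed mice with a median of 257. Pearson's r between Cd5l and that sum was 0.94 in the 15 fasted mice (Spearman's rho 0.80) and 0.27 in the 15 fed mice (rho 0.38), where both values of a mouse share the depth of its library. Without the 2 mice farthest from the median of Cd5l, r was 0.87 in 13 fasted and 0.06 in 13 fed mice. Cd5l covered a narrower range in the fed mice, which can lower r, so that the fed and fasted values are not a like comparison. The left-out WT LF fed mouse was high in both, with 369 CPM of Cd5l and 815 CPM for all 10 genes by library total. The fed r with this mouse kept was not computed. The coefficient of variation of Cd5l was 8.90% in fed and 45.7% in fasted mice. It was higher in fasted mice for 9 of the 10 genes, with Cd68 as the exception, and by little for Nrros (58.2% and 59.8%). These coefficients pool diets and genotypes, so that they also hold differences between group means. The share of all genes with a higher coefficient in fasted mice was not computed.

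**Figure D5:**
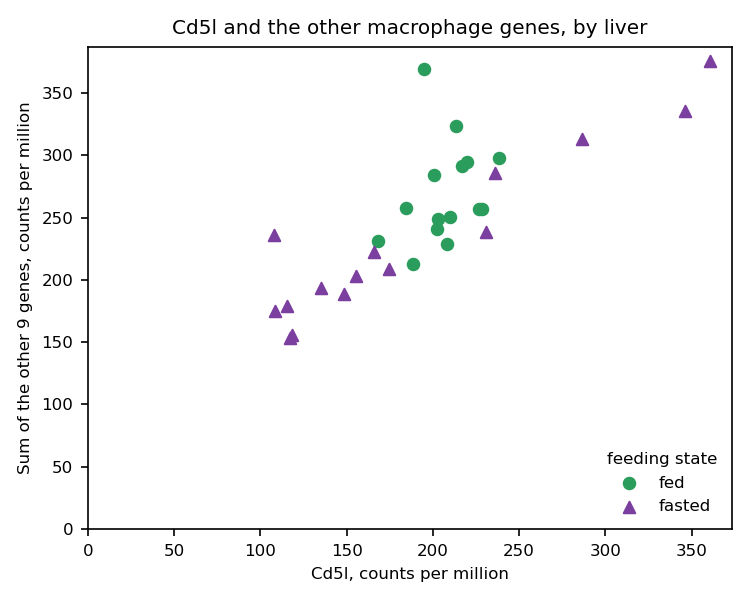
Cd5l CPM (x axis) against the summed CPM of the other 9 genes (y axis) in each liver, fed mice as circles and fasted mice as triangles. Fed mice lie between 168 and 238 CPM of Cd5l, and fasted mice spread from 108 to 361 CPM along a rising line. The left-out mice are not shown.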

How the data were processed

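RNA of 32 mice, labelled as liver, was sequenced with the Lexogen QuantSeq 3′ kit, and 1 library (KO HF fasted replicate 4) held heart markers at 28700 CPM and hepatocyte markers at 783 CPM. The authors aligned reads to GRCm38 with HISAT 0.1.5, sorted them with SAMtools 1.2 and counted them per gene with HTSeq 0.6.1p1 in union mode, and the deposited values are raw counts. The strand setting is not given in the sources used here. Symbols were found for 19913 of 20076 identifiers, and the unnamed ones held 0.125% of counts. Here, counts of 30 mice were scaled by TMM, filtered by filterByExpr and tested with edgeR 4.0.16 (R 4.3.3) in a model of the 8 groups for fasting and diet, and in a model of each condition for KO against WT, with Benjamini-Hochberg adjustment over all genes and a threshold of 0.05. Log2 CPM values used a prior count of 2. KO against WT in LF fasted and HF fed mice was not tested, since these contrasts chose Nrros. The code was tested on simulated data. The genes and lists were chosen with earlier results of these data known. Genes outside the 10 were named as ligands or partners, as the up to 4 smallest p-values of a list in the fasting or diet comparison, or as the 10 most alike. Alternatives were DESeq2 1.42.0, limma voom 3.58.1, other scalings, filters and samples, lane, age and a replicate block. Each mouse is 1 sample. Counting intervals would cover counting error only. Same-numbered mice did not deviate together (14 pairs, r from -0.13 to 0.13), and no libraries of a group agreed within sampling noise. One result of a gene list is not reported here.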

Additional observations from a re-analysis of the deposited data

Results flagged for a closer look

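In 60 groups of 4 mice (10 genes in each of 6 groups), 4 values stood far from the other 3 mice by Dixon's criterion, where chance gives about 1 in 20 groups. Marco was at 2.67 CPM in WT HF fed replicate 3, with 11.0 to 13.5 CPM in the other 3 mice, and at 3.30 CPM in KO HF fed replicate 3, with 6.77 to 7.64 CPM in the others. Csf1r was at 56.9 CPM in WT HF fasted replicate 4, with 28.8 to 32.04 CPM in the others, and this mouse also had the highest Cd5l. Cd68 was at 17.4 CPM in WT HF fed replicate 4, with 6.59 to 7.73 CPM in the others.

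The fasting effect on HF minus that on LF passed the test of the difference for 3 of the named genes, -0.94 for Grn, 1.05 for Mpeg1 and 1.06 for Spp1 on the log2 scale, and for none of the 10 macrophage genes.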

How the results depend on the processing

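Over all mice, the fasting comparison called 1 of the 10 genes, Adgre1, and 2 with library totals in place of TMM (Timd4 and Adgre1), 0 within lane 7 and 0 within lane 8, and 1 to 2 over the fits that leave out a single mouse (2 without WT LF fasted replicate 1). Totals moved the median of all genes on LF by -0.14, from -0.00018. On LF, 3 genes were called, 1 with all 32 mice, 0 without the 4 livers with adrenal or pancreatic transcripts, and 1 to 4 with each mouse left out, where 1 (Adgre1) came without KO LF fed replicate 2 or without WT LF fed replicate 1. Clec4f lost its call in 9 and Timd4 in 3 of these 30 fits, and 2 genes (Adgre1 and Timd4) were called with lane as a term. HF against LF in fasted mice called 0 genes, 2 with library totals (Clec4f and Timd4), and 0 to 1 with each mouse left out (Cd5l without KO LF fasted replicate 1, Timd4 without WT LF fasted replicate 1 or KO LF fasted replicate 2). The 10 genes had 0 calls for fasting on HF, for the difference of the fasting effects, for diet over all mice and in fed mice, and for KO against WT in LF fed and HF fasted mice, under each alternative run. The median of the genes, KO over WT, was -0.05 in LF fasted mice and 0.26 without the livers with adrenal transcripts, and -0.36 to 0.22 with each mouse left out (-0.36 without KO LF fasted replicate 1). In HF fed mice it was -0.13 to -0.02. Of the 10 genes most like the 10, 4 and 2 stayed by Spearman and with group means kept.

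Values near 0 changed sign. Nrros in LF fed mice, 0.12, was -0.37 with limma voom, -1.48 with lane as a term, -0.84 with the replicate block, -0.13 with all 8 mice and -0.85 to 0.51 with each mouse left out. Nrros after fasting, -0.18, was 0.057 in lane 8 and -0.28 to 0.061 with each mouse left out. On HF, the fasting value of Clec4f was -0.10 with all 32 mice and -0.0066 to 0.16 with each mouse left out, and that of Timd4 -0.23 to 0.093. The fasting value on HF of Mpeg1, 0.0086, was -0.023 with library totals, -0.16 with all 32 mice, -0.047 without the 4 livers and -0.13 to 0.11 with each mouse left out, and that of Spp1, 0.017, was -0.024, -0.17, -0.015 with age as a term, and -0.086 to 0.071. The cause was not tested. The replicate numbers name mice and do not pair them. A replicate block left 1 gene called for fasting over all mice (Adgre1, -0.63) and 3 on LF. Depth limits Timd4, Cd68, Nrros, Marco and Adgre1, at fewer than 70 counts in every liver.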

Other observations

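Markers of cells that enter the liver in inflammation were scarce. Of 16 genes of recruited monocytes and inflammatory macrophages, 8 had enough counts to be tested, and Il6, Chil3, Gpnmb and Tnf had no count in 27, 21, 21 and 20 of the 30 livers. After fasting over both diets 1 of the 8, Spp1, was lower, and between KO and WT none of the 6 that could be tested passed in LF fed or HF fasted mice with edgeR, DESeq2 or limma voom, with 1 and 0 at an unadjusted p below 0.05 in edgeR. Neutrophil markers summed to 3.27 to 21.4 CPM in 15 fed and 3.08 to 22.4 CPM in 15 fasted mice, and T and NK cell markers to 2.81 to 11.2 CPM and 3.73 to 14.6 CPM. In HF fasted mice the neutrophil sum was 17.4, 17.3 and 22.4 CPM in KO and 12.9, 4.08, 6.97 and 13.8 CPM in WT, so that every KO mouse lay above every WT mouse. Other sums separated in LF fed mice, with KO lower. T and NK cell markers were at 2.81 to 5.82 CPM in KO and 6.71 to 9.97 CPM in WT. Dendritic cell markers were at 22.7 to 26.0 CPM and 26.7 to 29.6 CPM. The share of all genes that separate is not given here. Of 9 neutrophil markers listed, 2 were tested in HF fasted mice. Both had an unadjusted p below 0.05 with edgeR, DESeq2 and limma voom, with a median log2 fold change of 1.12, and neither passed after adjustment over all genes. Of 10413 genes tested there, 384 had such an unadjusted p with edgeR.

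The mice left out of the comparisons differed from the rest in the macrophage genes. In the KO HF fasted library with heart transcripts, Cd5l had 11 counts, Clec4f 6, Vsig4 18, Marco 1 and Timd4 3, while C1qa had 204 and Csf1r 77. The WT LF fed mouse that was left out had 903 counts of Cd5l, 94 of Marco and 344 of C1qa, which are 369, 38.4 and 141 CPM by library total.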
